A study of Homo sapiens with 4 samples.

Results

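The deoxynucleotide supply enzymes described here are 9 genes, taken by name from a list (RRM1, RRM2, RRM2B, TYMS, DUT, DTYMK, TK1, DCK and SAMHD1), out of 54628 genes in each count table. All 9 were found and all 9 had enough reads to be tested. Poly(A) RNA was sequenced from the human cell line Panc1, grown out of a ductal carcinoma of the pancreas, in 2 libraries labelled HMGB2 siRNA and 2 libraries labelled Scramble siRNA, the control with a sequence not aimed at HMGB2. By the labels, both groups were treated with an siRNA. The siRNA sequence, its dose and the time of harvest are not given in the sources used here, and the labels do not say whether the numbered libraries came from separate cultures, so the error behind each p-value is that between libraries and may be technical only. HMGB2 is a DNA-bending chromatin protein, and the design asks how transcript levels differ when it is targeted.

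The targeted gene went against its labels. HMGB2 (hg38 chromosome 4, 173331376 to 173334358) had counts of 4021 and 2746 under the label HMGB2 siRNA, against counts of 346 and 319 under the label scramble. After scaling, the log2 fold change was 3.07 with an SE of 0.08 (quasi-likelihood test of edgeR, adjusted p = 1.54e-33), higher under the label that should lower it. The header of the count column also names the other treatment in each of the 4 tables. Groups are called by their labels throughout, and each direction below sets the libraries labelled HMGB2 siRNA, which held the high HMGB2 counts, against those labelled scramble, which held the low ones.

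Library totals ran from 20340695 to 31852391 counts, the largest being replicate 1 labelled HMGB2 siRNA, and a gene without reads could still have had 3 counts, or 0.0942 to 0.147 CPM (counts scaled to a common total) in a library. The smallest count of any member was 311, with an exact Poisson 95% interval of 277 to 348, and intervals and floors cover counting error only. Of 6 epithelial markers of the line, KRT8 was the most abundant, at 2722 and 2772 CPM in the libraries labelled HMGB2 siRNA, against 2541 and 1960 CPM in those labelled scramble. KRT7 was the least abundant, at 4.74 and 4.63 CPM in the libraries labelled HMGB2 siRNA, against 2.59 and 3.02 CPM in those labelled scramble. From this list KRT7, KRT8, KRT19 (1.61-fold) and the cadherin CDH1 (2.31-fold) were called higher, 0 were called lower by edgeR or DESeq2 or at an unadjusted p under 0.05, and the median log2 fold change was 0.49, although DESeq2 called only KRT19 and CDH1. KRT7 was also not called without replicate 1 labelled HMGB2 siRNA, nor KRT8 without scramble replicate 2. The part of this list in the members' differences was not tested. Of 13 markers of leukocytes, endothelium, acinar, endocrine and stromal cells, CD3E, PRSS1, INS and GCG had no read in any library, and all 13 together summed to 2.51 and 3.07 CPM in the libraries labelled HMGB2 siRNA, against 1.77 and 1.58 CPM in those labelled scramble. Of the 3 that could be tested, PDGFRB was called higher, at 0.827 and 1.07 CPM in the libraries labelled HMGB2 siRNA, against 0.318 and 0.192 CPM in those labelled scramble, a call lost on leaving out any library except scramble replicate 1.

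DNA synthesis needs a balanced supply of the deoxynucleotides dATP, dGTP, dCTP and dTTP. Ribonucleotide reductase, a complex of the large subunit RRM1 with a small subunit, either RRM2 or RRM2B, makes them from ribonucleotides, while TYMS, DUT and DTYMK feed the thymidine branch and TK1 and DCK salvage free deoxynucleosides. SAMHD1 works in the opposite direction and hydrolyses deoxynucleoside triphosphates. RRM2, TK1 and TYMS are widely known as genes whose expression is tied to the cell cycle through E2F factors and the DREAM and MuvB complexes, which read E2F sites and CHR elements, often beside boxes for the factor NF-Y. RRM2B, also called p53R2, is known as a p53 target that supplies deoxynucleotides in resting or damaged cells.

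Promoter windows from RefSeq (GRCh38.p14, 250 bases before and 50 after a transcript start) were found for 8 of the 9 genes, 13 windows in all, and none was found for RRM2B. Each window was searched on both strands for the NF-Y box CCAAT, the CHR words TTTGAA and TTTAAA (the second reads alike on both strands) and the E2F words TTTCCCGC, TTTCGCGC, TTTGCCGC and TTTGGCGC. Words of different kinds did not overlap each other in these windows, though windows of 1 gene can overlap. CCAAT stood in 6 of the 13 windows (5 genes), a CHR word in 5 windows (4 genes) and an E2F word in 3 windows (3 genes). Over the 16033 windows of genes tested here, the shares were 34.2%, 16.8% and 4.89%. The windows of RRM2 (chr2:10122489-10122788, plus strand), TK1 (chr17:78187003-78187302, minus strand), DUT (chr15:48331947-48332246, plus strand) and DCK (chr4:70993399-70993698, plus strand) are shown because they represent a reductase subunit, a thymidine kinase, a member not called and the member with the largest difference. For genes with several windows, the one with the most matches is given, and capitals mark the words found.
RRM2: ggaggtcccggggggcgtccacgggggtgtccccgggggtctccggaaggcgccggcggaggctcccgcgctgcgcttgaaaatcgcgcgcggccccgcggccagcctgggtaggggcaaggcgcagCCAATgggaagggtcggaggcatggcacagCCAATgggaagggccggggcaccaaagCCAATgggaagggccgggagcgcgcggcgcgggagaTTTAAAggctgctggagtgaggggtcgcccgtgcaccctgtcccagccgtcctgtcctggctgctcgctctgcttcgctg
TK1: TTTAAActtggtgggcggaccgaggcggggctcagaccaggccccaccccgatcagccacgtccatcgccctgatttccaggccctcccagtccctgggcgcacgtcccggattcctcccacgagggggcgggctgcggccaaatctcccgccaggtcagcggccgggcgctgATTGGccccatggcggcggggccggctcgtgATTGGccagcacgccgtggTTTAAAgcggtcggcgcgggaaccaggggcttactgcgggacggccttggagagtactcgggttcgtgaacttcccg
DUT: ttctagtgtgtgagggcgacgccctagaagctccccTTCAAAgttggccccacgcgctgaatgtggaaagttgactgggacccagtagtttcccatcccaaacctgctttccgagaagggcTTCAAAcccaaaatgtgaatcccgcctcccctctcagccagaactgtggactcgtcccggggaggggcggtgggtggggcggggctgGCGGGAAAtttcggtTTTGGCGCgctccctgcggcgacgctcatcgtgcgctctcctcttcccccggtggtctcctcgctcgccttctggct
DCK: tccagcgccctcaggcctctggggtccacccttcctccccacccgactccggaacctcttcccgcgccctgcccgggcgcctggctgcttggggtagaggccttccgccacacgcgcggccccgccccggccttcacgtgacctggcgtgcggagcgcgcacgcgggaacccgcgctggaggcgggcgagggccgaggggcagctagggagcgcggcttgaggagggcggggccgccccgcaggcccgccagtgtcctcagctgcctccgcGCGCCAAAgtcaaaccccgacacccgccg
RRM2 had CCAAT at 123, 93 and 66 bases and TTTAAA at 30 bases before its start. TK1 had CCAAT, read on the other strand, at 77 and 46 bases and TTTAAA at 250 and 27 bases before its start. In the window shown, DUT had 2 E2F words, at 42 and 27 bases before that transcript start, and 2 CHR words further upstream. The other DUT windows held none of the words. DCK had 1 E2F word, read on the other strand, 21 bases after its start. A word match is a description of letters, not of a bound site.

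Among the members, 7 were called higher, 1 was called lower and 1 was not called in the libraries labelled HMGB2 siRNA (HMGB2 counts 4021 and 2746) over those labelled scramble (HMGB2 counts 346 and 319). A call is an adjusted p under 0.05 after Benjamini-Hochberg adjustment over all 15161 genes tested. Over all those genes 16.7% were called higher and 14.1% lower. The 7 higher ones were DCK, SAMHD1, RRM2, TYMS, RRM1, DTYMK and TK1, the lower one was RRM2B and DUT was not called. Over the 9 members the median log2 fold change came to 0.33, and over all genes tested to -0.01, with quartiles of -0.21 and 0.20. In bulk RNA, a change in the share of cells that express a transcript and a change in the level per cell cannot be told apart.

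**Figure D1:**
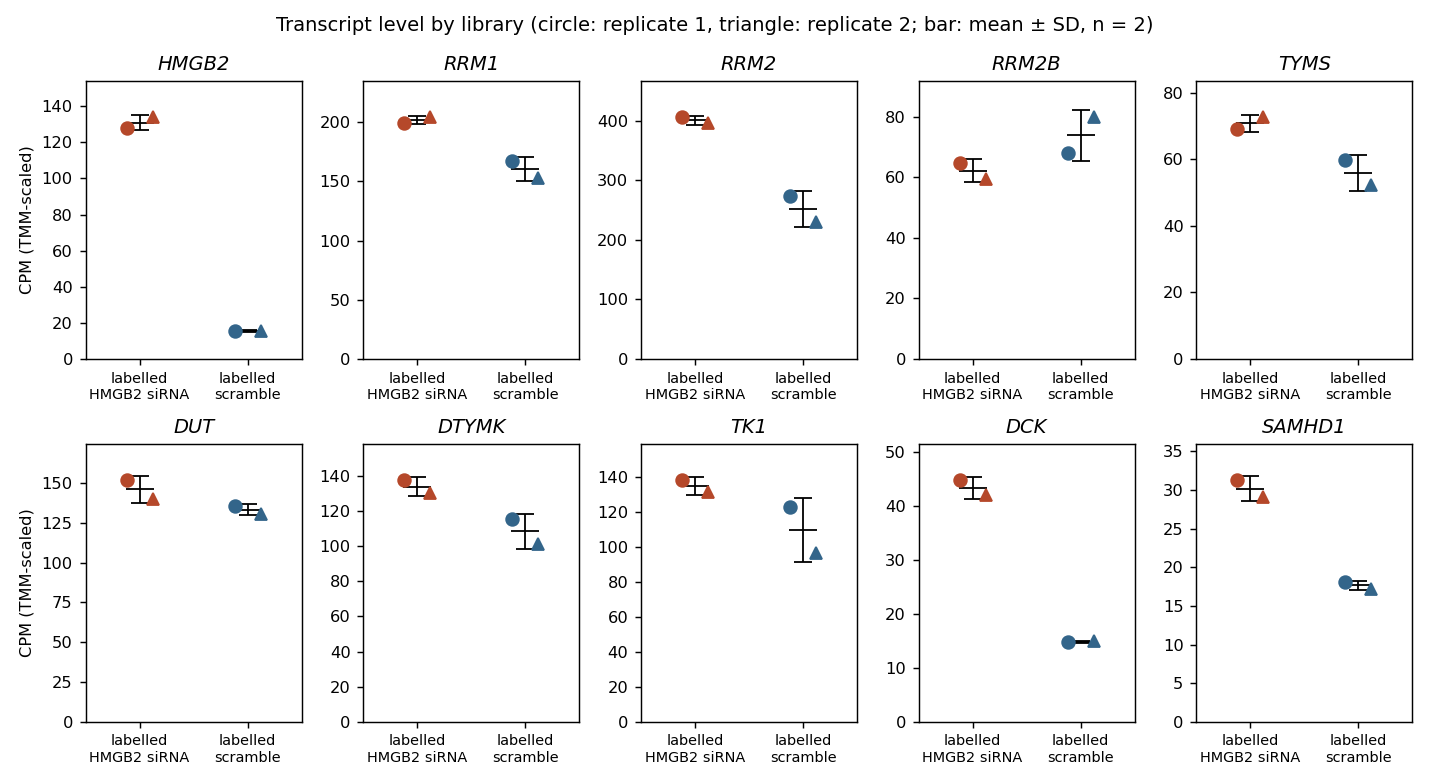
TMM-scaled CPM (vertical axis, from 0) of HMGB2 and the 9 members in each library, labelled HMGB2 siRNA left and labelled scramble right, with circles for replicate 1, triangles for replicate 2 and bars for mean ± SD (n = 2). DCK has the largest fold difference after HMGB2, at 44.9 and 42.0 CPM against 14.7 and 14.9 CPM, and RRM2B is the member that is lower in both libraries labelled HMGB2 siRNA.

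The reductase subunits did not all move one way. RRM2 (chromosome 2, 10122568 to 10211010), the small subunit of dividing cells and the one whose protein is destroyed outside S phase and in mitosis, had 406 and 396 CPM in the libraries labelled HMGB2 siRNA, against 273 and 231 CPM in those labelled scramble. Both values of the first group stood above both of the second, by at least 122 CPM, and the scramble pair itself differed 1.18-fold. RRM2 was 1.59-fold higher, a log2 fold change of 0.67 ± 0.07 (SE; edgeR, adjusted p = 2.84e-11). RRM1 (chromosome 11, 4094685 to 4138932), the large subunit that holds the catalytic and allosteric sites, had 199 and 204 CPM in the libraries labelled HMGB2 siRNA, against 167 and 153 CPM in those labelled scramble. Its groups were also apart, with a smaller difference of 1.26-fold (log2 fold change 0.33 ± 0.07 SE, edgeR adjusted p = 6.83e-05).

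RRM2B (chromosome 8, 102204501 to 102238961) went the other way. It had 64.9 and 59.6 CPM in the libraries labelled HMGB2 siRNA (HMGB2 counts 4021 and 2746), against 68.0 and 79.9 CPM in those labelled scramble (HMGB2 counts 346 and 319). The groups did not overlap, but the nearest libraries differed by -3.03 CPM, less than the libraries of either group differed from each other. The log2 fold change was -0.24 ± 0.08 (SE; edgeR adjusted p = 0.0112). The call rested on single libraries. Without scramble replicate 2 the value was -0.12 (adjusted p = 0.227), without replicate 2 labelled HMGB2 siRNA it was -0.18 (adjusted p = 0.296), and DESeq2 did not call it either (adjusted p = 0.0742). Without scramble replicate 1 it was -0.35 (adjusted p = 1.13e-05).

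Ratios within a library do not depend on library scaling. They compare transcripts by annotated exonic length, not the subunit proteins. Per kilobase of exon, RRM2 reads were 1.61 and 1.53 times RRM1 reads in the libraries labelled HMGB2 siRNA, against 1.29 and 1.19 times in those labelled scramble. RRM2B reads were 0.144 and 0.135 times RRM2 reads in the libraries labelled HMGB2 siRNA, against 0.224 and 0.311 times in those labelled scramble. RRM2B thus made up 12.6% and 11.9% of the small subunit transcripts per length in the libraries labelled HMGB2 siRNA, against 18.3% and 23.7% in those labelled scramble. The groups were apart for both ratios, with log2 differences of 0.34 for RRM2 to RRM1 and -0.92 for RRM2B to RRM2, and within-group spreads (pooled SD) of 0.07 and 0.24. For 2 against 2 libraries the two-sided exact permutation test gave p = 0.333 for each, the smallest it can give. RRM2 exons overlap those of the unnamed locus LOC105373424 on the opposite strand over 3.90% of their length, a locus with 9 to 36 counts.

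**Figure D2:**
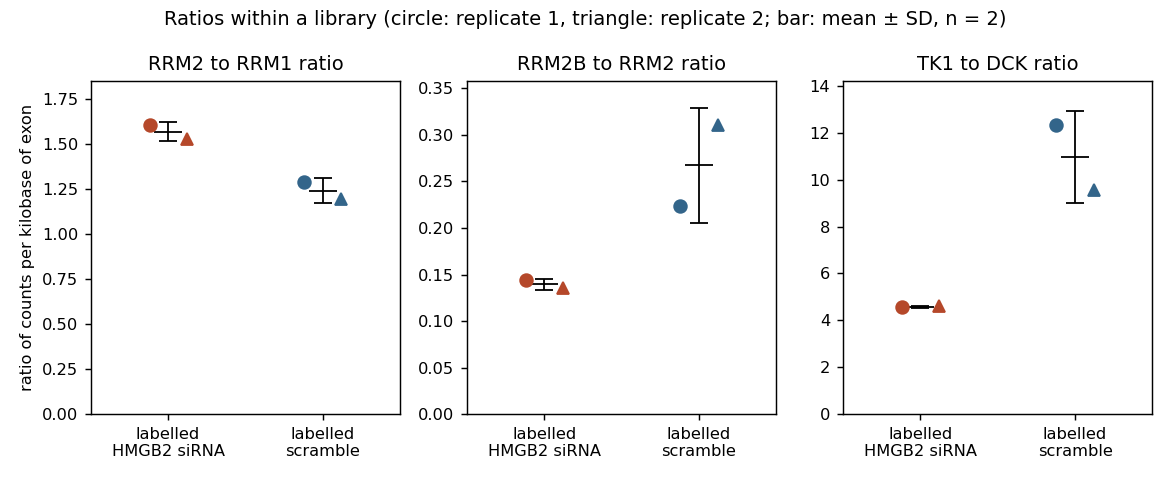
Ratios of counts per kilobase of exon within each library (vertical axis, from 0), labelled HMGB2 siRNA left and labelled scramble right, with circles for replicate 1, triangles for replicate 2 and bars for mean ± SD (n = 2). RRM2 to RRM1 is higher, and RRM2B to RRM2 and TK1 to DCK are lower, in both libraries labelled HMGB2 siRNA.

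In the thymidylate branch, 2 of the 3 enzymes were called higher and the differences were small. TYMS (chromosome 18, 657653 to 673578), the synthase that methylates dUMP to dTMP and the target of fluorouracil, had 69.1 and 72.7 CPM in the libraries labelled HMGB2 siRNA (HMGB2 counts 4021 and 2746), against 59.9 and 52.2 CPM in those labelled scramble (HMGB2 counts 346 and 319). The groups were apart, and TYMS was 1.26-fold higher (log2 fold change 0.34 ± 0.08 SE, edgeR adjusted p = 0.000435). TYMS shares 53.8% of its exonic length with ENOSF1 on the opposite strand, and whether strand was used in counting is not given in the sources used here. ENOSF1, picked out for that overlap, had 39.0 and 37.0 CPM in the libraries labelled HMGB2 siRNA, against 37.8 and 40.4 CPM in those labelled scramble, and was not called (adjusted p = 0.777). A second opposite-strand gene, TYMSOS, covers 5.89% of the TYMS exons, with 86 to 129 counts.

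DTYMK (chromosome 2, 241675747 to 241686815), the kinase that turns dTMP into dTDP, had 138 and 130 CPM in the libraries labelled HMGB2 siRNA, against 116 and 101 CPM in those labelled scramble. Its groups were apart and it was 1.23-fold higher (log2 fold change 0.30 ± 0.07 SE, edgeR adjusted p = 0.000505). The DTYMK call ended without replicate 1 labelled HMGB2 siRNA (0.26, adjusted p = 0.0723). DUT (chromosome 15, 48331095 to 48343373), which breaks down dUTP and so both supplies dUMP and keeps uracil out of DNA, had 152 and 140 CPM in the libraries labelled HMGB2 siRNA, against 136 and 131 CPM in those labelled scramble. The groups were apart by 4.57 CPM, less than the gap within either group. The log2 fold change was 0.14 ± 0.07 (SE), with a 95% interval from 0.0018 to 0.27 before adjustment, and DUT did not pass (unadjusted p = 0.0472, edgeR adjusted p = 0.12). Without scramble replicate 1 it did (0.17, adjusted p = 0.0266). DUT makes nuclear and mitochondrial isoforms, which gene counts do not separate.

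The cytosolic salvage kinases DCK and TK1 were both called higher, by unequal amounts. DCK (chromosome 4, 70993649 to 71030914) phosphorylates deoxycytidine and purine deoxynucleosides and is the kinase that activates gemcitabine, a drug used in pancreatic cancer. Its reads numbered 1410 and 862 in the libraries labelled HMGB2 siRNA, where HMGB2 had 4021 and 2746, against 324 and 311 counts in those labelled scramble, where HMGB2 had 346 and 319. These were 44.9 and 42.0 CPM in the libraries labelled HMGB2 siRNA, against 14.7 and 14.9 CPM in those labelled scramble, so the groups were far apart relative to the spread within either. DCK was 2.93-fold higher (95% interval 2.57 to 3.35), a log2 fold change of 1.55 ± 0.10 (SE; edgeR adjusted p = 9.36e-19). It ranked 52 of 15161 genes by fold change from the top. DCK was called in each of the 14 alternative settings, with log2 fold changes from 1.5 to 1.6, and was the only member called in a test against a 1.5-fold change (adjusted p = 3.47e-12). No other gene's exons overlap those of DCK in the tables.

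TK1 (chromosome 17, 78174079 to 78187204), the S phase thymidine kinase, had 138 and 131 CPM in the libraries labelled HMGB2 siRNA, against 123 and 96.6 CPM in those labelled scramble. The groups were apart by 8.36 CPM, while the scramble libraries differed 1.27-fold, the widest gap within a group among the members. TK1 was 1.23-fold higher (log2 fold change 0.30 ± 0.07 SE, edgeR adjusted p = 0.00163). It was 0.14 and not called without scramble replicate 2 (adjusted p = 0.0927), 0.26 and not called without replicate 1 labelled HMGB2 siRNA (adjusted p = 0.0776), and 0.49 without scramble replicate 1 (adjusted p = 5.11e-12). Per kilobase of exon, TK1 reads were 4.56 and 4.62 times DCK reads in the libraries labelled HMGB2 siRNA, against 12.3 and 9.58 times in those labelled scramble. That was a log2 difference of -1.24 with a pooled SD of 0.18 (exact permutation p = 0.333, the smallest 2 against 2 libraries can give). TK1 exons overlap AFMID on the opposite strand over 7.73% of their length, and AFMID had 357 to 589 counts.

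SAMHD1 (chromosome 20, 36889773 to 36951708), the triphosphohydrolase that lowers deoxynucleotide pools, was also higher under the label HMGB2 siRNA. It had 31.3 and 29.0 CPM in the libraries labelled HMGB2 siRNA (HMGB2 counts 4021 and 2746), against 18.1 and 17.2 CPM in those labelled scramble (HMGB2 counts 346 and 319). The gap between the groups, 10.97 CPM, was larger than the spread within them. SAMHD1 was 1.71-fold higher, a log2 fold change of 0.78 ± 0.10 (SE; edgeR adjusted p = 1.18e-08), and values over all alternatives ran from 0.72 to 0.83. The opposite-strand gene TLDC2 covers 18.8% of the SAMHD1 exons and had 0 counts in all 4 libraries.

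**Figure D3:**
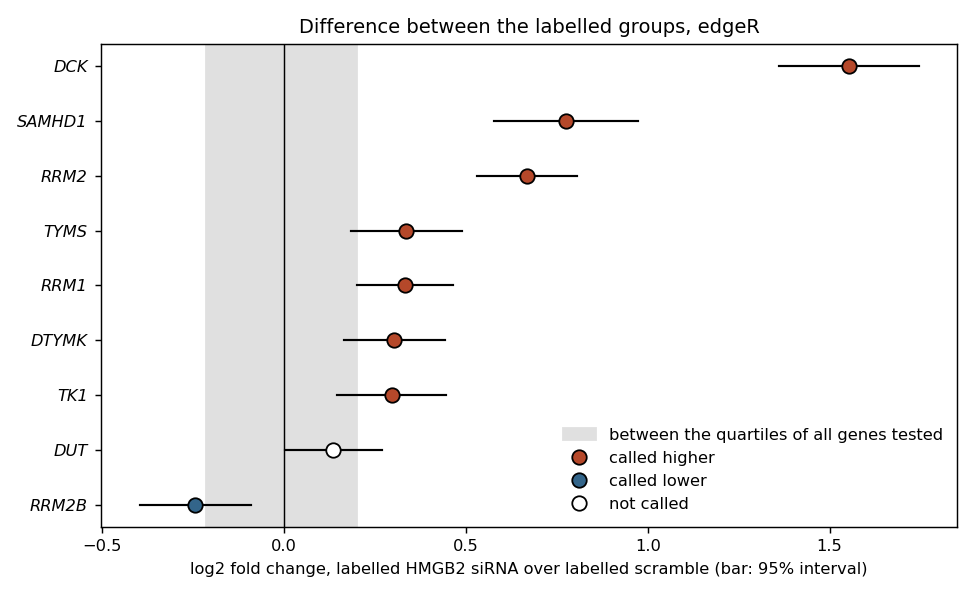
Log2 fold change of each member (horizontal axis, labelled HMGB2 siRNA over labelled scramble) with its 95% interval, filled where called, and the range between the quartiles of all genes tested (-0.21 to 0.20) as a grey band. DCK stands at 1.55, SAMHD1 at 0.78 and RRM2 at 0.67, with TYMS, RRM1, DTYMK and TK1 between 0.30 and 0.34.

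All 8 members with higher means and RRM2B had libraries that did not overlap between the labelled groups. Over all genes tested, the groups did not overlap for 32.0% in the higher and 31.6% in the lower direction, so separation alone carries little. Scramble replicate 1 exceeded replicate 2 by 1.09-fold to 1.27-fold for RRM1, DTYMK, TYMS, RRM2 and TK1, whereas DCK (0.986), DUT (1.04) and SAMHD1 (1.05) were nearly level and RRM2B (0.851) was lower in replicate 1.

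Compared per length as TPM (counts over exonic length, scaled to a common total), the level order was much alike in both groups. In the libraries labelled HMGB2 siRNA it ran DTYMK (mean 275 TPM), RRM2 (218), TK1 (196), DUT (156), RRM1 (139), TYMS (97.1), DCK (42.7), RRM2B (30.4) and SAMHD1 (12.5), and no neighbours overlapped. In those labelled scramble it ran DTYMK (226 TPM), TK1 (162), DUT (144), RRM2 (139), RRM1 (112), TYMS (77.9), RRM2B (36.7), DCK (14.8) and SAMHD1 (7.40), where DUT and RRM2 overlapped between libraries. RRM2 and DCK therefore stood at a higher place under the label HMGB2 siRNA, and TK1, DUT and RRM2B each at a place 1 lower. The 9 members summed to 1195 and 1136 TPM in the libraries labelled HMGB2 siRNA and to 959 and 880 TPM in those labelled scramble. Pseudogene rows of the members held few reads, 13 to 21 counts for RRM2P3 and 0 to 7 for each of the others. Exonic length counts every annotated exon, so transcripts with little-used long exons appear lower on this scale. It also includes exons shared with opposite-strand genes, 53.8% of the length for TYMS. How reads in shared exons were counted is not given, so the TYMS level on this scale is uncertain.

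Other genes of nucleotide metabolism were counted by list. Of 5 genes of de novo pyrimidine synthesis, edgeR, DESeq2 and limma-voom each called 0, with 1 at an unadjusted p under 0.05, and CTPS1, which makes CTP, had 205 and 209 CPM in the libraries labelled HMGB2 siRNA, against 218 and 202 CPM in those labelled scramble (log2 fold change -0.02). Of 13 purine synthesis and salvage genes, 3 were called higher and 1 lower. ADSS2, which commits IMP to AMP, was 1.34-fold higher, GMPS, the GMP synthase, 1.16-fold and PFAS, an early enzyme of the same route, 1.14-fold, while the salvage enzyme APRT had a log2 fold change of -0.18. Of 10 tested nucleotide kinases, edgeR and the other tools called 0 higher (1 at an unadjusted p under 0.05) and 1, NME6, lower (log2 fold change -0.35). NME6 lost its call without replicate 2 labelled HMGB2 siRNA, while its log2 fold change ran from -0.40 to -0.33 over the alternatives.

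Of 11 folate cycle genes, which supply the methyl group that TYMS uses, 4 were called higher and 2 lower. SHMT2, MTHFD1, FPGS and GGH had log2 fold changes from 0.21 to 0.30, and MTHFD1L, 1 of the lower ones, had -0.22. With upper-quartile scaling, total-count scaling or DESeq2, 2 of the folate genes were called higher, as FPGS and GGH lost their calls. Median log2 fold changes were 0.01 for pyrimidine synthesis, 0.14 for purine synthesis, -0.02 for the kinases and 0.14 for the folate cycle. Without either library labelled HMGB2 siRNA, the purine list had 1 gene called higher and 0 lower and the folate list 2 higher and 1 lower, and without scramble replicate 1 the kinase list had 2 higher and 2 lower. Upper-quartile scaling gave 1 purine gene higher, and both it and total-count scaling gave 3 kinases lower. The APRT call was lost with DESeq2, with no low-count filter and without any 1 library except scramble replicate 2. PFAS, APRT, SHMT2, FPGS, GGH and MTHFD1L, and below PNP, DCTPP1, NUDT1, ITPA, SLC29A1, DCTD, TYMP, ADA, TXN, TXN2, GSR, GLRX2, MCM6 and E2F3, were named after their values had been seen.

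Other deoxynucleoside salvage, transport and breakdown genes were split, with 6 of 16 tested called higher and 4 lower and a median of -0.04. SLC25A36, a mitochondrial pyrimidine nucleotide carrier, had 87.2 and 80.8 CPM in the libraries labelled HMGB2 siRNA, against 59.6 and 62.6 CPM in those labelled scramble. SLC29A1, the more abundant of the equilibrative nucleoside transporters listed, had 295.2 and 294.9 CPM in the libraries labelled HMGB2 siRNA, against 259 and 225 CPM in those labelled scramble (log2 fold change 0.28). The other higher ones were the purine nucleoside phosphorylase PNP (0.35) and the nucleotide pool cleaning enzymes DCTPP1 (0.30), NUDT1 (0.20) and ITPA (0.18, log2 fold changes). NUDT1 and ITPA lost their calls with upper-quartile scaling, total-count scaling or DESeq2 and without any 1 library except scramble replicate 1, and PNP lost its call without replicate 1 labelled HMGB2 siRNA. SLC29A2, the related transporter called lower, had 60.5 and 60.2 CPM in the libraries labelled HMGB2 siRNA, against 78.4 and 83.4 CPM in those labelled scramble. The other lower ones were DCTD, the deaminase that feeds dUMP to TYMS (-0.39), TYMP, which breaks down thymidine (-0.37), and ADA, adenosine deaminase (-0.30, log2 fold changes). ADA lost its call without replicate 2 labelled HMGB2 siRNA (log2 fold change -0.26). Without replicate 1 labelled HMGB2 siRNA the list had 3 higher and 5 lower.

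Of 7 genes of the thioredoxin and glutaredoxin systems, 5 were called higher and 1 lower (median 0.32). These systems return electrons to ribonucleotide reductase, but the list also holds mitochondrial members. TXNRD1, thioredoxin reductase, had 976 and 1017 CPM in the libraries labelled HMGB2 siRNA (HMGB2 counts 4021 and 2746), against 660 and 627 CPM in those labelled scramble (HMGB2 counts 346 and 319). GLRX, glutaredoxin, was 1.62-fold higher, TXN, GSR and TXN2 had log2 fold changes from 0.26 to 0.32, and the mitochondrial glutaredoxin GLRX2 had -0.31. Without replicate 1 labelled HMGB2 siRNA 3 of them were called higher, and GLRX2 lost its call with DESeq2 (adjusted p = 0.114) and without replicate 2 of either group.

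**Figure D4:**
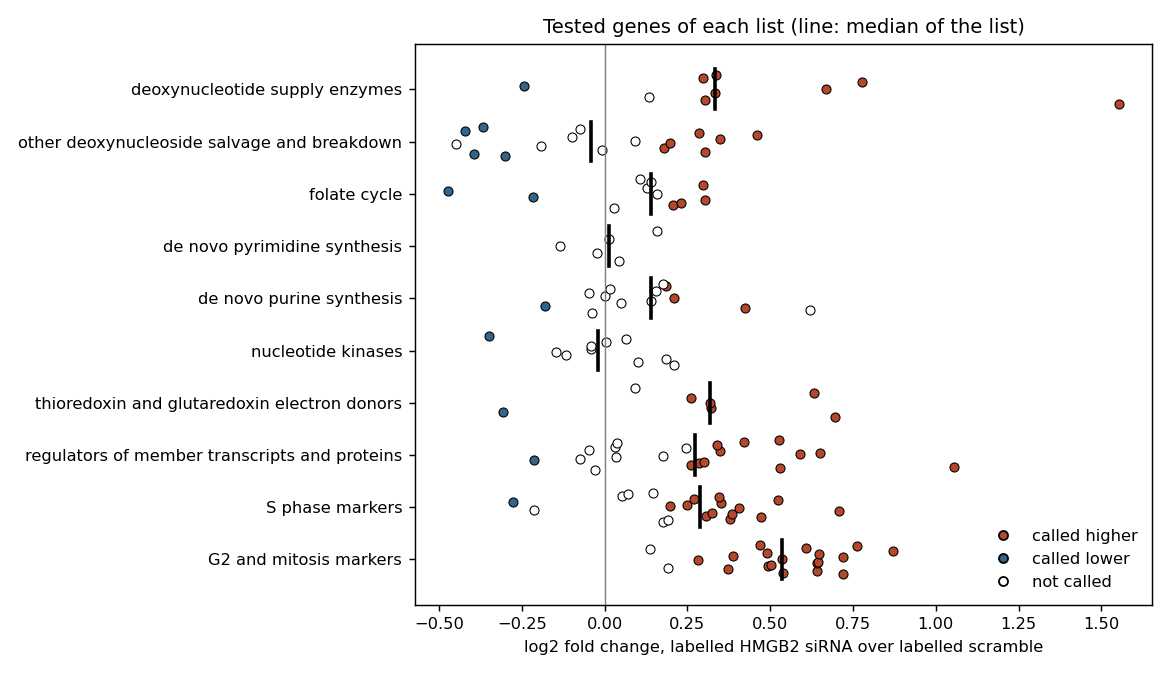
Log2 fold change (horizontal axis, labelled HMGB2 siRNA over labelled scramble) of each tested gene in the members' list and in 9 neighbouring lists, filled where called, with a line at each list's median. The members' median of 0.33 lies near those of the S phase markers (0.29) and the electron donors (0.32), below that of the G2 and mitosis markers (0.54) and above that of pyrimidine synthesis (0.01).

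Cell cycle markers moved with the members. Of 20 S phase markers 13 were called higher and 1 lower (median log2 fold change 0.29), and their summed level was 2263 and 2316 CPM in the libraries labelled HMGB2 siRNA, against 1988 and 1741 CPM in those labelled scramble. MCM6 was the lower one (-0.28), and dropping replicate 2 labelled HMGB2 siRNA left 6 higher and 0 lower. Of 20 G2 and mitosis markers 18 were called higher and 0 lower (median 0.54; also 0 lower by DESeq2 and at an unadjusted p under 0.05 by edgeR), with sums of 4277 and 4424 CPM in the libraries labelled HMGB2 siRNA, against 3153 and 2793 CPM in those labelled scramble. Scramble replicate 2 had the lowest sum of both lists, and it was also lowest for RRM1, RRM2, TYMS, TK1, DTYMK, DUT and SAMHD1. The part of cell cycle stage in the members' differences was not tested. The replicative helicase genes GINS1 and MCM7 stood 1.63-fold and 1.44-fold higher, and PLK1 and KIF11, a mitotic kinase and a spindle motor, 1.83-fold and 1.65-fold higher. DCK, at 2.93-fold, exceeded every gene of both lists, the highest of which was at 0.87 on the log2 scale.

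Of 20 regulators of the members' transcripts and proteins, which include the E2F genes, the cyclin F gene CCNF and the ATR and CHEK1 kinases, 11 were called higher and 1, E2F3, lower (-0.21), with a median of 0.27. E2F3 lost its call with DESeq2, without a low-count filter and without either library labelled HMGB2 siRNA. CDKN1A, the p21 cell cycle inhibitor and like RRM2B a p53 target, had 83.0 and 85.7 CPM in the libraries labelled HMGB2 siRNA (HMGB2 counts 4021 and 2746), against 44.8 and 36.2 CPM in those labelled scramble (HMGB2 counts 346 and 319). It was 2.08-fold higher (log2 fold change 1.06 ± 0.08 SE, edgeR adjusted p = 1.87e-15), the opposite direction to RRM2B. WEE1, the kinase that restrains mitotic entry, was 1.44-fold higher.

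The genes whose pattern over the 4 libraries was nearest to RRM2, by Euclidean distance of centred log2 CPM, were GTSE1 (0.0233), PLEKHA3 (0.0251), UBE2S (0.0295), KRT19 (0.0344) and TRIP10 (0.0408). All had a log2 fold change between 0.65 and 0.69, a higher scramble replicate 1 than 2 and a slightly higher replicate 1 than 2 under the label HMGB2 siRNA. With 4 libraries in 2 groups, such likeness mostly restates the group difference.

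**Figure D5:**
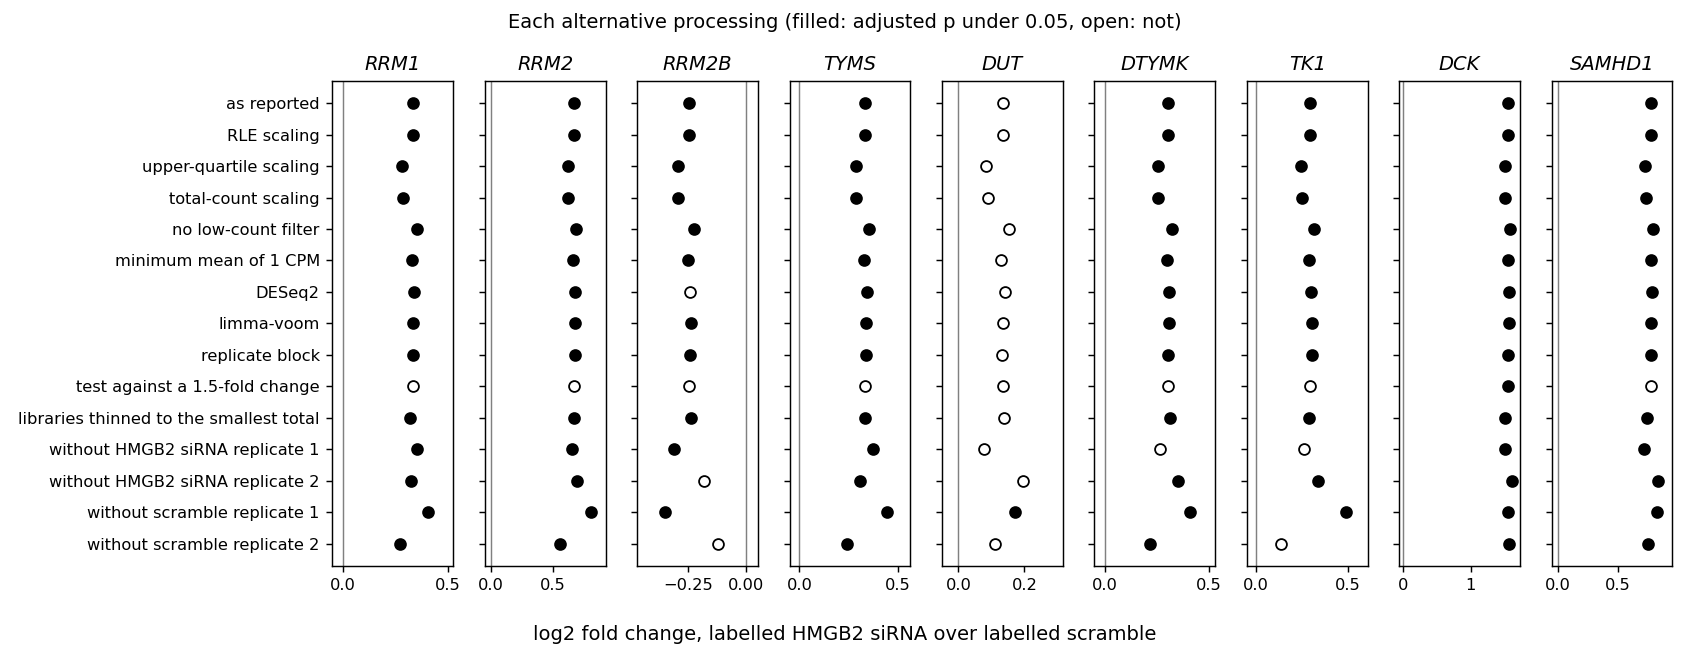
Log2 fold change of each member (horizontal axis, labelled HMGB2 siRNA over labelled scramble) as reported and under 14 alternative settings (rows), filled where the adjusted p is under 0.05. DCK stays between 1.5 and 1.6 throughout, while the calls of RRM2B, TK1 and DTYMK are open circles without certain libraries, and the sign of every member is kept in all rows.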

How the data were processed

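The authors deposited unnormalized whole-number read counts per gene, 1 table per library, with exon coordinates and exonic length, per the file headers. STAR, SAMtools 1.9, featureCounts of Subread 1.6.3 and DESeq2 are named, per the submitters' processing notes, and the build is hg38 (GRCh38). Strand setting and treatment of multimapping reads are not given in the sources used here. Tables were assigned to samples as the deposit records and groups came from the labels, although the column headers name the other treatment.

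Counts were tested with edgeR 4.0.16 (quasi-likelihood, group as the only term, TMM scaling, default filterByExpr) in R 4.3.3, leaving 15161 genes, with Benjamini-Hochberg adjustment over all of them and a threshold of 0.05. CPM used TMM-scaled totals. TPM used the deposited exonic lengths. The common biological coefficient of variation was 0.0507. Replicates of a group differed by more than sampling noise (chi-square per degree of freedom 3.10 labelled HMGB2 siRNA, 5.68 labelled scramble). The procedure was tested on simulated data. Promoter windows came from RefSeq (GRCh38.p14).

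The alternatives changed 1 choice each: the tool (DESeq2 1.42.0, or limma-voom of limma 3.58.1), the scaling (RLE, upper-quartile, total count), the filter (none, or at least 1 CPM on average), the null (a 1.5-fold change), the depth (libraries thinned to the smallest total), a replicate block, or the libraries (each left out in turn). Members and lists were chosen with earlier results of these data known. Named genes were the members, the 2 genes with the smallest p among those called in each list (the most abundant where none was), and the 5 nearest to RRM2. One named gene of the folate list is not reported here. Scripts used Python 3.11.15.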

Additional observations from a re-analysis of the deposited data

How the results depend on the processing

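HMGB2 kept its direction and call under all 14 alternatives (log2 fold change 3.02 to 3.11), and no member changed sign in any. With the test against a 1.5-fold change 1 member was higher and 0 lower, and over all genes 213 were higher and 45 lower. DESeq2 called 7 members higher and 0 lower, and 1860 genes higher and 1076 lower. Leaving out 1 library at a time gave 5 to 8 members higher and 0 to 1 lower. Over all genes it gave 1481 to 2904 higher and 903 to 2291 lower. The counts over all genes were smallest without a library labelled HMGB2 siRNA. Each of these fits leaves 1 library in a group. Of all calls as reported 54.3% were higher, but 42.0% were with upper-quartile scaling and 43.3% with total counts. These scalings moved the median of all genes to -0.06 and -0.05, and the same 7 members stayed called higher. Without 1 library at a time, CTPS1 ranged from -0.075 to 0.040 and ENOSF1 from -0.077 to 0.013, neither of them called. The within-library log2 ratios without 1 library ranged from 0.28 to 0.40 (RRM2 to RRM1), -1.16 to -0.68 (RRM2B to RRM2) and -1.43 to -1.06 (TK1 to DCK). The cause of these shifts was not tested. The labels share replicate numbers without saying that they pair libraries, and the deviations of same-numbered libraries had a correlation of -0.01 over genes. With the replicate block 7 members were higher and 1 lower, and 2446 genes were higher and 2011 lower. With libraries thinned to the smallest total, 7 members were higher and 1 lower. The members with the fewest counts, SAMHD1 and DCK, had the largest SEs (0.099 and 0.095), against 0.066 for RRM1. The smallest member count was 311, and 2 libraries a group limit every test.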
